A study of Homo sapiens with 15 samples.

Results

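Phenformin is a biguanide, a drug class related to metformin that inhibits complex I, the entry point of electrons from NADH into the mitochondrial respiratory chain. Its transcriptional effect was examined here in A2058, an established human melanoma cell line, by comparing 3 arrays of cells treated for 8 hours with phenformin (50 μM) with 3 arrays of cells kept for 8 hours in water, the solvent control that the series records for the biguanides. These were 6 of the 15 arrays of the series, chosen by their labels. The other 9 arrays held cells treated for 8 hours with metformin (5000 μM), with the compound labelled NP (3 μM) or with its solvent DMSO, in 3 replicates each. All cells were grown as a single line in serum-containing medium, and the study describes the replicates as biological.

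When amino acids run short or proteins misfold, kinases phosphorylate the translation factor eIF2, general protein synthesis slows, and the mRNA of the transcription factor ATF4 is translated more efficiently. ATF4 then activates genes for amino acid synthesis, uptake and tRNA charging together with stress regulators such as DDIT3 and TRIB3. Loss of complex I activity is a known trigger of this program. Respiration is needed to make aspartate and, through it, asparagine, but the route to ATF4 was not tested here. A separate factor, MondoA, senses glucose phosphates and drives TXNIP and ARRDC4, and both genes are known to fall when glycolysis is accelerated.

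RNA was labeled with 1 dye and hybridized to arrays of 58201 probes, and a level is given throughout as log2 intensity minus the 75th percentile of that array on the same scale. Between 31994 and 45044 probes per array were well above background on the 6 arrays, and no spot was saturated. The array of water replicate 1 stood apart, with 45044 probes above background, against 36841 and 32164 in the other water arrays and 34984, 34607 and 31994 in the phenformin arrays. Replicates 1 and 2 of both groups shared a slide, as did the replicates 3. After genes were reduced to 1 probe each, 26429 features (genes or transcripts) above background on all 3 water or all 3 phenformin arrays were tested, and 16463 of them had a gene symbol. Of a list of melanocyte identity and dedifferentiation genes, 28 of 30 were tested, and none of the 28 passed the test for change. Because the list mixes both kinds of gene, this count does not measure melanocyte identity. The melanocyte genes SOX10, PMEL, MITF and DCT were among those tested and were above background on all 6 arrays. So were all 7 measured leukocyte, all 4 endothelial and all 6 fibroblast markers. The same held for 5 of 6 keratinocyte and epithelial markers and for 93.2% of all features. This mark therefore does not tell cell types apart.

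A change of 1.5-fold or more with an adjusted p of at most 0.05 (limma with replicate number as a block, Benjamini-Hochberg over all features) defined the differentially expressed genes (DEGs). Phenformin gave 9 DEGs, 8 that rose (0.0303% of the features tested) and 1 that fell (0.00378%). The 6 rises with a gene symbol were CHAC1, NUPR1, ASNS, JDP2, SESN2 and VEGFA, and all 6 stood on the list of ATF4 targets. The fall was ARRDC4. In all 9, the levels of the phenformin arrays did not overlap with those of the water arrays, which applied upward to 3.45% and downward to 4.84% of all features. Limma called no DEG when any 1 replicate pair was left out or when the replicate block was dropped.

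CHAC1, an enzyme that degrades glutathione, had the largest fold change of all features tested. Its levels were 1.03, 0.85 and 0.94 on the water arrays and 3.20, 3.19 and 3.60 on the phenformin arrays, so that every phenformin array lay more than 2 log2 units above its water partner. The log2 fold change was 2.39 ± 0.22, or 5.25-fold, with an adjusted p of 0.0264 in limma. Here and below, ± gives the SE of the limma fit to all arrays of the series, not of the 3 pairs alone. A second CHAC1 probe gave a log2 fold change of 2.30.

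ASNS makes asparagine from aspartate and is a classical ATF4 target. Its levels were 3.51, 3.74 and 3.92 with water and 5.12, 5.19 and 5.33 with phenformin. The log2 fold change was 1.49 ± 0.13, or 2.81-fold (adjusted p = 0.0202 in limma). The 3 pairs differed little, between 2.66-fold and 3.06-fold.

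NUPR1, a small nuclear protein induced by many stresses, was dim but above background on all 6 arrays. It read -2.73, -2.62 and -2.72 with water and -1.33, -1.26 and -0.77 with phenformin, and the third pair showed the widest gap. The log2 fold change was 1.57 ± 0.12 (adjusted p = 0.0202 in limma). JDP2, a bZIP protein that dimerizes with Jun and ATF3, read 1.00, 1.17 and 1.32 with water and 2.47, 2.51 and 2.70 with phenformin. Its log2 fold change of 1.39 ± 0.13 was nearly equal in the 3 pairs, between 2.53-fold and 2.76-fold (adjusted p = 0.0264 in limma).

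SESN2, a leucine sensor that restrains the growth kinase mTORC1, read -1.33, -1.69 and -1.41 with water and -0.57, -0.59 and -0.32 with phenformin. Its log2 fold change was 0.98 ± 0.10 (adjusted p = 0.0337 in limma). VEGFA, the angiogenic growth factor, is both an ATF4 target and a target of the hypoxia factor HIF1. It read 1.57, 1.60 and 1.62 with water and 2.45, 2.36 and 2.57 with phenformin, the tightest water values of the 9 DEGs. Its log2 fold change was 0.87 ± 0.07, or 1.82-fold (adjusted p = 0.0202 in limma), and a second VEGFA probe gave 0.56, which is under the fold threshold.

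Both remaining rises were transcripts without a gene symbol. ENST00000518311 read 1.59, 1.71 and 1.57 with water and 3.04, 3.21 and 3.40 with phenformin (log2 fold change 1.59 ± 0.15, adjusted p = 0.0264 in limma). TCONS_l2_00028188 read -1.13, -1.16 and -1.37 with water and 0.25, 0.45 and 0.55 with phenformin (1.63 ± 0.17, adjusted p = 0.0439). A further transcript without a symbol, ENST00000511103, was at 1.56 and missed the threshold (adjusted p = 0.0633).

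**Figure D1:**
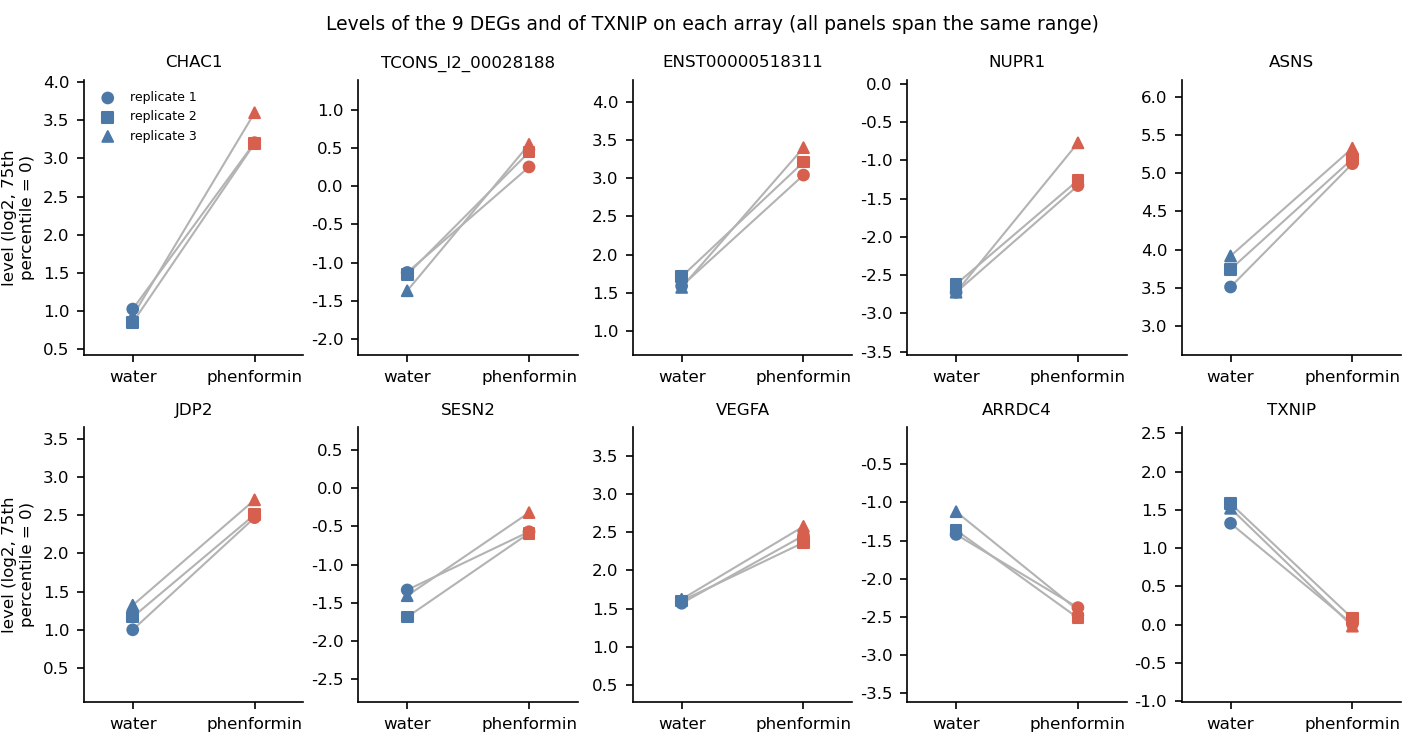
Level on each array (log2 units above or below the array's 75th percentile, vertical axis) of the 9 DEGs and of TXNIP in water and phenformin, with a line joining the arrays of the same replicate number. In each of the 10 panels the 3 phenformin arrays lie on 1 side of the 3 water arrays, above them in 8 and below them for ARRDC4 and TXNIP.

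ARRDC4, an arrestin-domain protein that limits glucose uptake, was the 1 fall that passed, and it was not called with the block on 9 arrays, where TXNIP was, or with 1 replicate number shared by all 15 arrays. It read -1.42, -1.36 and -1.12 with water and -2.38, -2.51 and -2.41 with phenformin. The log2 fold change was -1.13 ± 0.09 (adjusted p = 0.0202 in limma), which left 0.46 of the water level. TXNIP, its relative in sequence and function, which also binds thioredoxin, read 1.33, 1.58 and 1.52 with water and 0.01, 0.08 and -0.02 with phenformin. The groups did not overlap, and the log2 fold change of -1.45 ± 0.19 was larger than that of ARRDC4, but its adjusted p of 0.0981 in limma missed the threshold. The other 6 measured members of the list of TXNIP, arrestin-domain relatives and MondoA subunits lay near 0, with ARRDC1 at 0.16 and ARRDC2 at 0.13 as the highest.

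The promoters of DEGs on the ATF4 list and of TXNIP and ARRDC4 are shown because ATF4 and MondoA are known to bind defined letters there. The sequences are from RefSeq (GRCh38.p14), 300 bases each, 250 before and 50 after the annotated start, read 5′ to 3′ on the strand of the gene. Of the 8 genes for which a promoter was sought, 6 were in the table, and VEGFA and NUPR1 were not. The motif TGATGNAA, the core of the C/EBP-ATF response element, and the carbohydrate response element, a pair of CACGNG boxes 5 bases apart, were searched on both strands. Capitals mark a match.
ASNS, chr7:97872359-97872658, minus strand: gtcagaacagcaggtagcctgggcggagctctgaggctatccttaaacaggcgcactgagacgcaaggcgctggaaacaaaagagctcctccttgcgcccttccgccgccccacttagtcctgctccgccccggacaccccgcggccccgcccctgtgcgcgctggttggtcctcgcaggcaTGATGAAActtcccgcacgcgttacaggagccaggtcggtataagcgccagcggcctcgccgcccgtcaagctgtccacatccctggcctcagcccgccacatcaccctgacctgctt
CHAC1, chr15:40953221-40953520, plus strand: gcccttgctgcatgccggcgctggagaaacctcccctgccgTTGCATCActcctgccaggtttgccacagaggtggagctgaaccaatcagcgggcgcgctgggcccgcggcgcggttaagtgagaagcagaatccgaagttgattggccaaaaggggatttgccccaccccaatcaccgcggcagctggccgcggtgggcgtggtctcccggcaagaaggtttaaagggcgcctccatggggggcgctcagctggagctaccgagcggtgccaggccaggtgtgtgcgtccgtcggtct
JDP2, chr14:75427474-75427773, plus strand: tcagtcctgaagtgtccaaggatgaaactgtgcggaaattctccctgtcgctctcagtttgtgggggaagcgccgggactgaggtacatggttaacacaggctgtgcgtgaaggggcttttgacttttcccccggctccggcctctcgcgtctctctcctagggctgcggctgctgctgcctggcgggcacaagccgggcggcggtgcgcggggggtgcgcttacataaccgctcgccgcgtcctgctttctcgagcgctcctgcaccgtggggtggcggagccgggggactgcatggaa
SESN2, chr1:28259268-28259567, plus strand: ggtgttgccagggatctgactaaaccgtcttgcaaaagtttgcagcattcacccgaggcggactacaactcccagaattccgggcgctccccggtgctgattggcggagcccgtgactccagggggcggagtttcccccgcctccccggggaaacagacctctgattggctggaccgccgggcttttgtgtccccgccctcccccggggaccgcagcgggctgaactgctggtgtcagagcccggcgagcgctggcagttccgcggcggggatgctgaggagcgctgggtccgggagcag
TXNIP, chr1:145996530-145996829, minus strand: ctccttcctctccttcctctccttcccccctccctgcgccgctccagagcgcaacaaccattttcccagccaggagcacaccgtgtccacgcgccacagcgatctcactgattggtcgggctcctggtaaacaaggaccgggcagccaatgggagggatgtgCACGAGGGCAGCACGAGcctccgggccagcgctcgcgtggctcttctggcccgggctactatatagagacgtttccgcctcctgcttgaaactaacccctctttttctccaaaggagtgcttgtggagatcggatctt
ARRDC4, chr15:97960453-97960752, plus strand: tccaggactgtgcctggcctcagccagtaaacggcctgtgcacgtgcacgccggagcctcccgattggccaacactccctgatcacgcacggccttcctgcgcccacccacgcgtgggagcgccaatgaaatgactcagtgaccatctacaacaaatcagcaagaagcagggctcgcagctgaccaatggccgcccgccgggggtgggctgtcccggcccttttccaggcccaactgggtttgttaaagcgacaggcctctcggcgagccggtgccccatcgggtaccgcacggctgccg
ASNS held TGATGAAA at -68 to -61 from the start, and CHAC1 held the motif on the opposite strand at -209 to -202. JDP2, SESN2, TXNIP and ARRDC4 had no match to TGATGNAA in this window. TXNIP held the carbohydrate response element at -88 to -72, and ARRDC4 had no match to these letters. TGATGNAA occurred in 3.67% of 27305 promoters of this length, in 2.04% of the 12707 promoters of tested genes, and in 12 of the 45 promoters found for ATF4 targets (26.7%). The ATF4 list was written from general knowledge with earlier results of these arrays known, so that this share is a description. The carbohydrate response element occurred in 20 of the 27305 promoters (0.0732%) and in 18 of the 12707 promoters of tested genes (0.142%). No match to 1 motif overlapped a match to the other.

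Most ATF4 targets lay above 0 after phenformin, by amounts under the threshold for single genes. Of 58 listed, 57 were tested and FGF21 was not. Of the 57, 52 had a log2 fold change above 0, as did 37.8% of all features, and 49 were above 0 in all 3 pairs, as were 11.3% of all features. The phenformin arrays lay above the water arrays without overlap for 41 of the 57, as they did for 3.45% of all features. The median log2 fold change was 0.45 (0.49, 0.39 and 0.44 in the 3 pairs) against -0.04 over all features. With 6 DEGs on the list, 20 passed the same fold at an unadjusted p of 0.05, a mark that 0.223% of all features passed upward. The list was written from general knowledge with earlier results of these arrays known, so that its count is a description.

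**Figure D2:**
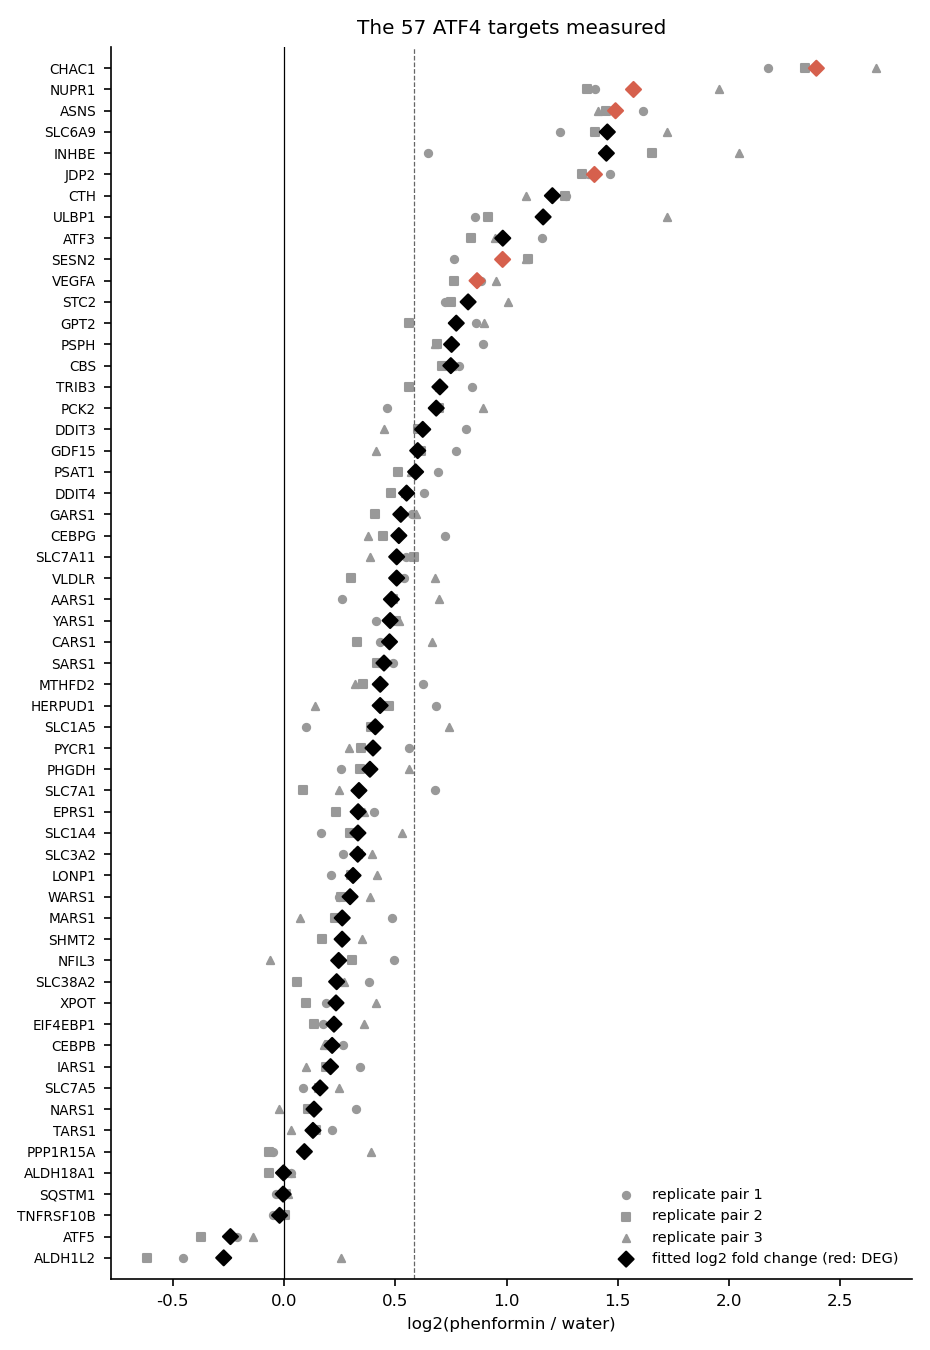
Log2 ratio of phenformin over water (horizontal axis) for the 57 ATF4 targets measured, ordered by the fitted fold change (diamonds, red for DEGs), with the 3 replicate pairs in grey and the fold threshold dashed. CHAC1 is highest at 2.39, 52 of the 57 diamonds lie right of 0, and ATF5 and ALDH1L2 are lowest.

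Among enzymes of serine and cysteine synthesis, PSPH and CTH came close to the threshold. PSPH, the last step of serine synthesis, read 2.79, 3.09 and 3.15 with water and 3.68, 3.78 and 3.83 with phenformin, with no overlap (log2 fold change 0.75, adjusted p = 0.0633 in limma). CTH, which releases cysteine from cystathionine, read 0.47, 0.54 and 0.70 against 1.74, 1.81 and 1.79 (1.21, adjusted p = 0.0633). CBS, the step before CTH, had a log2 fold change of 0.75, PSAT1 of 0.59, the mitochondrial enzymes PCK2 of 0.68 (0.22 at a second probe) and GPT2 of 0.77, and the folate enzyme MTHFD2 of 0.43. PHGDH, the first step of serine synthesis, was at 0.39, and ALDH18A1, which starts proline synthesis, was at -0.00. None of these enzymes passed the adjusted test. Of the 27 measured enzymes of asparagine, arginine, proline, alanine and aspartate metabolism, ASNS was the 1 DEG, and of the 19 of serine and folate metabolism none was.

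Among amino acid carriers, SLC6A9, the glycine transporter, read -0.11, -0.10 and -0.20 with water and 1.13, 1.29 and 1.52 with phenformin. Its log2 fold change was 1.45 ± 0.17 with an adjusted p of 0.0633, and a second probe gave 0.55. SLC7A11, the cystine carrier, was at 0.51 and its partner SLC3A2 at 0.33, and for both the groups overlapped. Over the 22 measured carriers the median was 0.05. The cytosolic aminoacyl-tRNA synthetases, which charge tRNAs, had 17 of 19 members above 0 (37.8% of all features were), a median of 0.13 and no DEG. GARS1 was highest among them at 0.52, followed by AARS1 at 0.48, and SARS1 was at 0.45 with an adjusted p of 0.139 (0.82 at a second probe). Their 17 mitochondrial counterparts had a median of 0.06.

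The transcription factors of the response, other than JDP2 and NUPR1, missed the adjusted threshold. ATF4 mRNA itself read 7.45, 7.47 and 7.59 with water and 8.06, 8.03 and 8.10 with phenformin, with no overlap (log2 fold change 0.56 ± 0.10, adjusted p = 0.266 in limma). DDIT3, the proapoptotic factor CHOP, read -0.24, 0.04 and -0.28 against 0.58, 0.64 and 0.16 (0.62, adjusted p = 0.371). ATF3 was at 0.98 (adjusted p = 0.154), although its 3 other probes ranged from -0.23 to 0.68. TRIB3, a pseudokinase that feeds back on ATF4, was at 0.70, and DDIT4, an inhibitor of mTORC1, at 0.55. ATF5, also an ATF4 target, was at -0.24. JUN was the lowest of the 21 measured ATF4 family and partner factors, at -0.57 with no overlap (adjusted p = 0.207 in limma). Its log2 ratios were -0.38, -0.49 and -0.84 in the 3 pairs. The 18 measured eIF2 kinases and phosphatase regulators, upstream of ATF4, had a median of 0.04 and lay between -0.16 and 0.18.

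Among 10 measured secreted stress signals, VEGFA was the 1 DEG. GDF15, a hormone of mitochondrial stress, read 4.90, 5.01 and 5.29 with water and 5.68, 5.62 and 5.70 with phenformin (log2 fold change 0.60, adjusted p = 0.188 in limma). STC2 was at 0.83 (adjusted p = 0.188). INHBE, a liver hormone and ATF4 target, had a log2 fold change of 1.45 with an adjusted p of 0.375, and was above background on 2 of the 3 water arrays, where it read -3.82, -4.55 and -5.17, against -3.17, -2.90 and -3.13 with phenformin. The cytokines CXCL8 and IL6 were at -0.43 and -0.09. Among the 26 measured cytokines and chemokines of the NF-kB list, 7 were above 0 (26.9%, against 37.8% of all features), with CCL2 at -0.44 and no DEG. The median was -0.10, with 0.07, -0.14 and -0.19 in the 3 pairs.

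Of 42 lists, 34 held no DEG. The 52 measured complex I genes, which encode the enzyme that biguanides inhibit, ranged from -0.09 to 0.18 with a median of 0.00. The 39 genes of complexes II to V had a median of -0.01, the 79 mitochondrial ribosomal proteins -0.01 and the 75 cytosolic ribosomal proteins -0.00. Each of these medians moved between pairs by more than its own size, for complex I from 0.17 in the first pair to -0.15 in the third.

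The 28 measured chaperones, degradation factors and sensors of the endoplasmic reticulum, where misfolded proteins trigger a related response, had a median of -0.01, and HSPA5, the main chaperone of the compartment, was at -0.06 (adjusted p = 0.871 in limma). XBP1 at 0.44 and HERPUD1 at 0.43 were the highest members and did not pass. The 20 heat shock chaperones had a median of -0.05, and HSPA1A, the lowest of them, was at -0.37. The proteasome, at -0.01 over 31 subunits, showed no DEG.

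Glycolysis and hypoxia genes had VEGFA as their 1 DEG among 36 measured and a median of 0.04. HK2, which commits glucose to glycolysis, was at 0.28 with no overlap between groups, and PDK1, which diverts pyruvate from mitochondria, at 0.09. AMPK subunits and regulators of mitochondrial biogenesis had a median of 0.02 over 21, and PPARGC1A was at 0.06. Of 10 biguanide transporters 4 were tested. One of them, SLC29A4, was at 0.02.

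Growth and identity genes showed no DEG. The medians were -0.01 for 35 genes of G1/S and DNA replication, -0.06 for 35 genes of G2/M, -0.05 for 69 histone genes and 0.02 for 22 genes of ERK output, where DUSP6 was at -0.05. CCND1 was at 0.07, MYC at 0.05 and EGR1 at -0.08. MITF, the melanocyte master regulator, was at -0.09, SOX10 at 0.05 and PMEL, a melanosome protein, at 0.15. Among the brakes on mTORC1, SESN2 was a DEG, while SESN3 at -0.67 and DEPTOR at -0.58 did not pass.

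**Figure D3:**
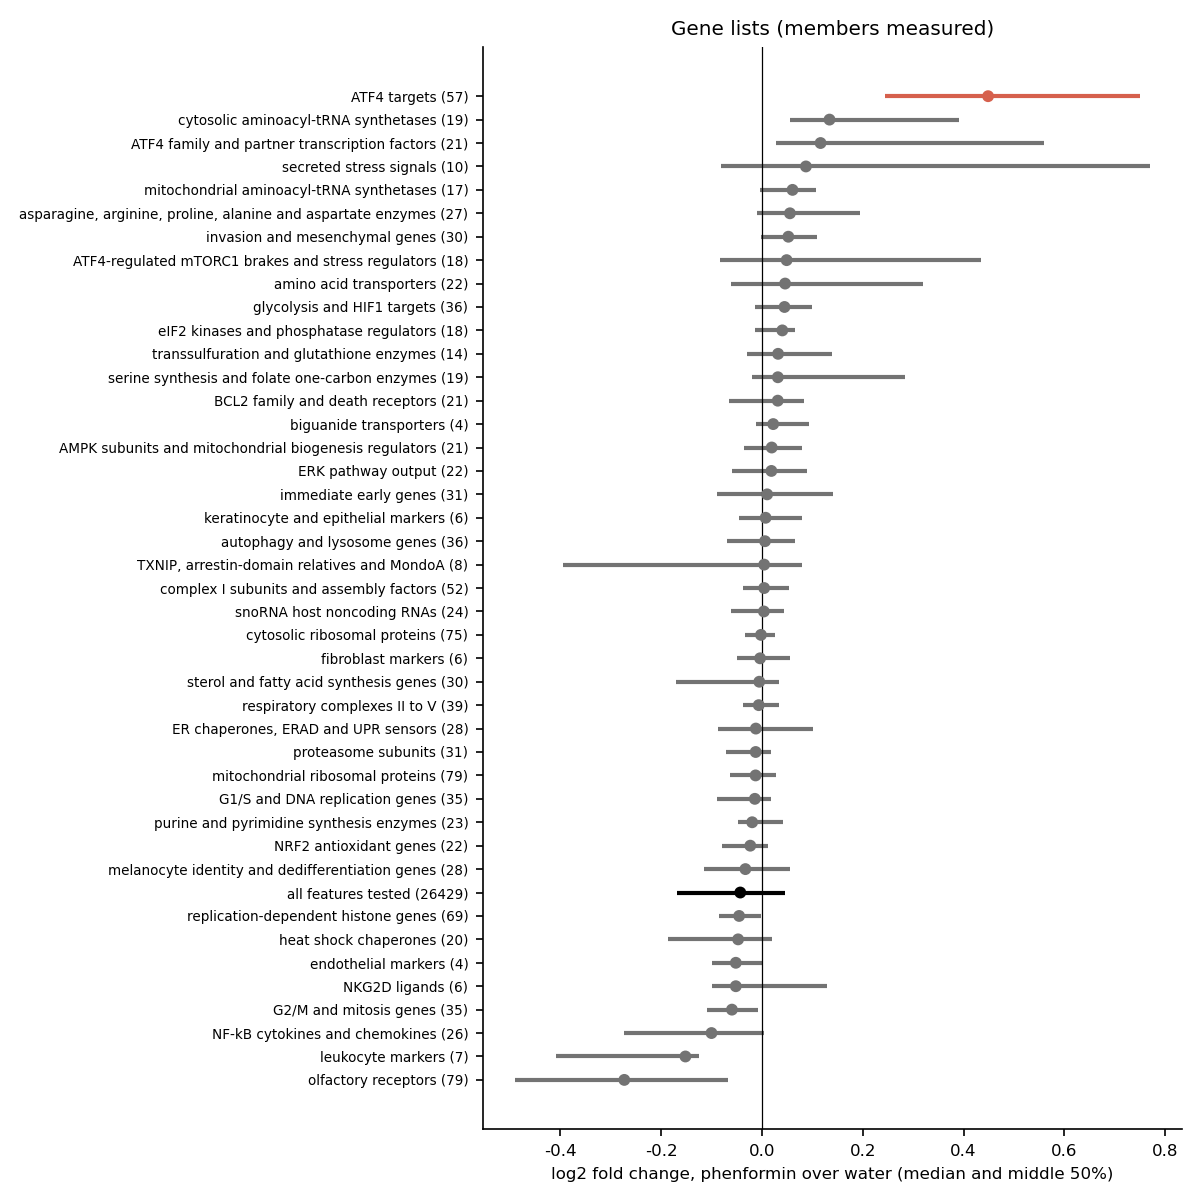
Median (points) and middle 50% (lines) of the log2 fold change of phenformin over water for 42 gene lists and for all 26429 features (black), with the number of measured members in parentheses. ATF4 targets (red) are highest at 0.45, most lists lie near 0, and olfactory receptors are lowest at -0.27.

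At an unadjusted p of 0.05 and 1.5-fold, the threshold of the study's methods applied to limma, 59 features rose (0.223%) and 354 fell (1.34%) at that mark. Of the rises, 20 were ATF4 targets and 61.0% had a symbol, against 62.3% of all features. Of the falls, 0 were ATF4 targets and 37.3% had a symbol. The rises had a median level of -0.99 against -0.98 over all features, whereas the falls had a median level of -4.51. Above a level of -2 there were 32 rises and 10 falls, and TXNIP and ARRDC4 were the falls of greatest size among these 10.

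**Figure D4:**
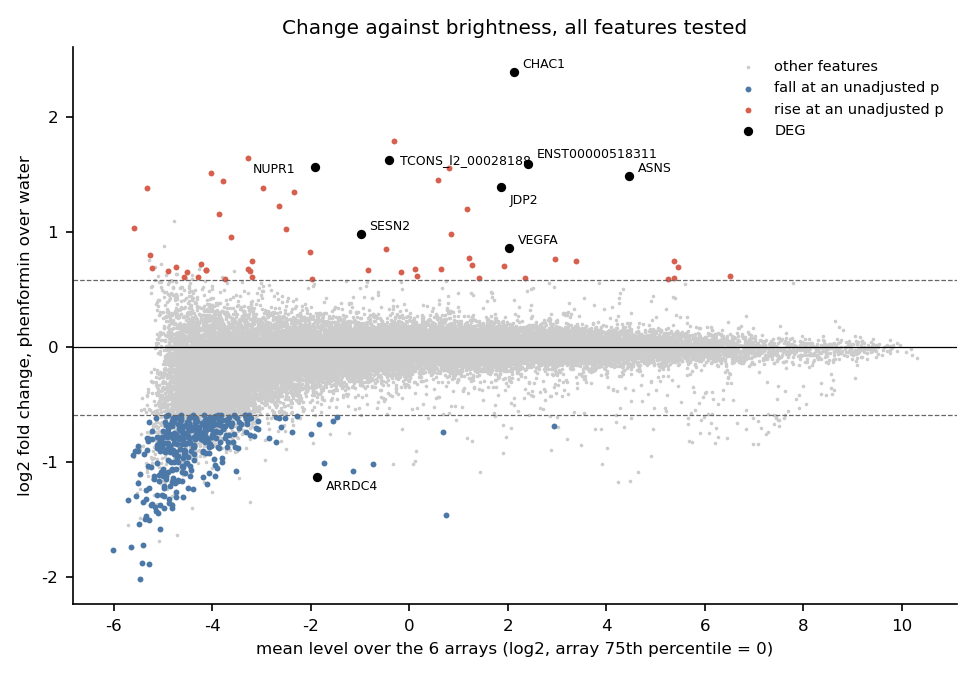
Log2 fold change of phenformin over water (vertical axis) against the mean level of the 6 arrays (log2, horizontal axis) for 26429 features, with the 1.5-fold thresholds dashed, DEGs in black and the remaining features that pass at an unadjusted p in red (rises) and blue (falls). The falls crowd at the dim end, where their median level is -4.51, while the rises are spread over the whole range.

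Among the falls, the first pair had the widest differences. Their median log2 ratio was -1.21 in pair 1, -0.55 in pair 2 and -0.66 in pair 3, whereas the rises gave 0.77, 0.76 and 1.01. Of the 354 falls, 133 (37.6%) were above background on all 6 arrays, against 48 of the 59 rises (81.4%) and 93.2% of all features. The falls outside these 133 entered the test only through the water arrays, where they were high, and 44 falls were above background on no phenformin array. Of the rises, 11 entered only through the phenformin arrays. Among all 3671 features with a level under -4, the median log2 ratio was -0.79 in pair 1, -0.11 in pair 2 and -0.01 in pair 3. Above a level of 4 the 3 medians were 0.09, -0.02 and -0.08. Water replicate 1, whose array had the most probes above background, belongs to pair 1. Without replicate 1, limma counted 135 rises and 173 falls. Without replicate 3 it counted 60 rises and 750 falls.

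Among features with a symbol that were above background on all 6 arrays and had 1 sign in all pairs, the 10 lowest log2 fold changes included those of TXNIP, ARRDC4, SLC5A5, RALYL, LNCRNA-IUR, NHLH2, SNHG31, OR2B11 and LINC02148. For SLC5A5, the iodide transporter, the log2 ratios were -1.92, -1.13 and -0.31 in the 3 pairs. For NHLH2, a neuronal transcription factor, they were -2.24, -0.56 and -0.22. LNCRNA-IUR had the smallest p after TXNIP and ARRDC4, with -1.36, -0.67 and -1.02 in the 3 pairs (adjusted p = 0.328 in limma), while a second probe of it gave -0.23. The 79 measured olfactory receptors, the odorant receptors of the nose, had a median of -0.27, with -0.78, -0.09 and 0.15 in the 3 pairs. The 7 measured leukocyte markers were all below 0, while 37.8% of all features were above 0. Their median was -0.15, with -0.59, -0.04 and -0.04 in the 3 pairs. The 10 highest log2 fold changes chosen in the same way were those of CHAC1, NUPR1, ASNS, SLC6A9, JDP2, ECM2, FLJ43315, RPS6KA2, CTH and ANKFN1. ECM2, an extracellular matrix protein, was at 1.39 and RPS6KA2, a ribosomal S6 kinase, at 1.23 (both with an adjusted p of 0.207), but a second RPS6KA2 probe gave -0.11.

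Fewer probes gained detection than lost it. Of 58201 probes, 30375 were above background on all 6 arrays and 12522 on none. Only 5 probes were above background on all 3 phenformin arrays and no water array, and LCNL1 and TMEM225B were the genes with a symbol among them, named after their values were seen. In the other direction 108 probes were lost, of 40 genes with a symbol. Each water array had more probes above background in total than the phenformin array of the same replicate number. What set this difference was not tested.

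The metformin arrays stood on the same slides and shared the water controls. Both drugs are biguanides, phenformin carrying a phenylethyl group and metformin methyl groups, and their doses differed, 50 μM against 5000 μM, so that their values are given side by side. Metformin gave 1 rise and 1 fall by the same rule, NUPR1 with a log2 fold change of 1.47 (1.57 with phenformin) and ARRDC4 with -1.15 (-1.13 with phenformin). CHAC1 was at 2.13 with metformin and 2.39 with phenformin, ASNS at 1.10 and 1.49, JDP2 at 1.11 and 1.39, SESN2 at 0.80 and 0.98, and TXNIP at -1.61 and -1.45. VEGFA was at 0.50 with metformin and 0.87 with phenformin. HK2 was at -0.03 and 0.28. In the direct contrast of phenformin and metformin arrays, limma called 0 DEGs, and at an unadjusted p of 0.05 it counted 19 rises (0.0719%) and 504 falls (1.91%). The array of metformin replicate 1 had 44451 probes above background, against 34984 on that of phenformin replicate 1. What set the split of rises and falls was not tested. For VEGFA the direct contrast gave 0.37 ± 0.07 (SE) with an adjusted p of 0.604 in limma.

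The NP and DMSO arrays lay on other slides and shared no array with this comparison. Both comparisons came from the same limma fit, however, and shared its estimate of the spread of each feature. A feature with a small spread is thus favoured in both calls, and the counts that pass in both are a description. Of the 8 rises after phenformin, 7 also passed in NP against DMSO, where 0.212% of features passed upward, and so did the fall of ARRDC4, at -0.69, where 0.0189% passed downward. The exception was TCONS_l2_00028188 (1.13, adjusted p = 0.0600 in limma). Of the 59 features that rose with phenformin at an unadjusted p, 53 were above 0 in NP against DMSO, with a median of 0.99. Of the 354 that fell, 176 were above 0 there, with a median of -0.00, as against 45.6% of all features above 0. The difference between both responses, tested as 1 contrast, gave 0 DEGs in limma and 94 features higher (0.356%) and 715 lower (2.71%) at an unadjusted p.

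The level in DMSO bears on the size of these changes. In ASNS, the DMSO arrays read 4.85, 5.04 and 5.97, against 3.51, 3.74 and 3.92 in water and 5.12, 5.19 and 5.33 with phenformin. VEGFA was lower in DMSO, at 0.66, 0.71 and 0.24. SESN2 read -1.22, -1.71 and -1.21 in DMSO, a mean 0.09 above that in water. The study's array methods set all compounds against DMSO, whereas the record of the series sets the biguanides against water, in which they were dissolved. Because no slide held both solvents, slide set and solvent cannot be told apart. With DMSO in place of water, the log2 fold change of ASNS was -0.071, that of ENST00000518311 -0.17 and that of TCONS_l2_00028188 -0.25, and the median of the ATF4 targets was 0.19.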

How the data were processed

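Cy3-labeled RNA of 15 A2058 cultures was hybridized by the authors to SurePrint G3 human arrays, and they deposited the spot intensity of each probe from Agilent Feature Extraction (version 10.7.3.1 per the file headers, 9.1 per the labels), background-subtracted and detrended but not normalized between arrays. The authors also deposited log2 values aligned at the 75th percentile with a floor, used here as an alternative. Here, control spots were left out, 1853 outlier spots over the 15 arrays were set to missing, replicate spots were averaged by probe, and each array's log2 75th percentile was subtracted. This scaling does not correct differences that depend on brightness, and the number of arrays limits the precision. Symbols came from RefSeq accessions (31104 of the 33080 probes that carry one), and a gene kept its brightest probe.

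Features above background on all 3 phenformin or all 3 water arrays entered limma 3.58.1 (R 4.3.3, two-sided) with 5 groups and a block for replicate number, numbered separately in the 2 sets of slides, over all 15 arrays. Water and phenformin arrays of 1 number deviated together (r = 0.31, 0.33 and 0.42 over 24613 features), so the numbers were taken as pairs. Of the features tested, 30 lacked a value on at least 1 of the 6 arrays. The fits were checked on simulated data. Tables and figures used Python 3.11.15, pandas 2.3.3, numpy 2.4.6 and matplotlib 3.10.9.

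Named were all DEGs with a symbol, 35 genes listed by name and some of the 2 largest rises and falls of a list discussed. Also named were the 10 largest rises and falls with a symbol and 3 transcripts without one. Single sterol synthesis genes and 1 gene that this rule named are not reported here. The members, lists and alternatives were chosen with earlier results of these data known. The alternatives were other blocks and array sets, the paired test of the methods, other background correction, scaling, filters and probe choice, the authors' table, DMSO as the comparator, and leaving out each replicate.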

Additional observations from a re-analysis of the deposited data

How the results depend on the processing

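The 9 DEGs kept their direction under all 17 alternatives against water, but their number did not hold. Other blocks, fits on 9 or 6 arrays and the paired t-test could not move the fold change of a feature with all values present. Only the remaining alternatives could therefore have turned a direction. There were 0 DEGs in either direction without the replicate block, with 6 arrays alone, with the methods' paired t-test after adjustment (smallest adjusted p 0.234), without a filter on dim probes and without any 1 of replicates 1 to 3 (0 to 0). Slide in place of the replicate number gave 14 rises and 2 falls, normexp 25 and 4 (14 of these 29 on the ATF4 list), and features above background on all 6 arrays 13 rises. With the block on 9 arrays there were 6 rises and 1 fall, 4 of these 7 among the 9 DEGs, with TXNIP called and ARRDC4 not. With 1 replicate number shared by all 15 arrays as the block there were also 6 and 1, 6 of them among the 9, without ARRDC4. The methods' paired t-test, run against water where the array methods name DMSO, gave 42 rises and 110 falls at an unadjusted p. At an unadjusted p in limma, the split of rises against falls was 28 to 24 with normexp, 244 to 95 with quantile normalization, 50 to 185 in the authors' table, 48 to 139 above background on all 6 arrays, 49 to 115 without the block, 52 to 221 with that shared number, and 106 to 1958 without a filter. Leaving out 1 replicate gave 60 to 135 rises and 173 to 750 falls. The block therefore changed the calls, and the cause of the other shifts was not tested. The median of the ATF4 targets stayed between 0.42 and 0.46 against water. The planned comparison with DMSO in the block within slides could not be fitted across slide sets. One with a shared block, chosen after seeing the data, gave 1727 rises and 1017 falls (2701 and 1399 at an unadjusted p), an ATF4 median of 0.19, and log2 fold changes of -0.071 for ASNS, -0.17 for ENST00000518311, -0.25 for TCONS_l2_00028188 and -0.90 for SLC7A11. Signal over background limits what can be said of features under a level of -4.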

Other observations

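A set of bright features stood low after phenformin in the first pair and not in the others. Of 2748 features with a mean level above 4, 89 had a log2 ratio of -1 or less in pair 1, 0 in pair 2 and 1 in pair 3. None of the 89 was a DEG or passed 1.5-fold at an unadjusted p of 0.05 in limma. They were chosen for their values in pair 1, so that these are a description. Their median level was 7.86 on the array of water replicate 1 and 8.49 on that of metformin replicate 1, while on the other 13 arrays it lay between 5.37 and 6.43, with 5.94 on that of phenformin replicate 1. NKX2-5, a heart transcription factor, read 9.12, 7.35 and 7.10 with water and 7.23, 7.18 and 7.09 with phenformin. LBX1, a muscle and neural transcription factor, read 9.12, 7.34 and 7.03 against 7.28, 7.21 and 7.11. DIABLO, an antagonist of apoptosis inhibitors, read 9.09, 7.50 and 7.17 against 7.40, 7.32 and 7.27. CEBPD, a partner of ATF4 family factors, had log2 ratios of -1.74, -0.17 and 0.32 in the 3 pairs. These examples were named after their values were seen. Water and metformin replicate 1 were also the arrays with the most probes above background, 45044 and 44451.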
